A study of Mus musculus with 4 samples.

Results

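The genes described here encode interleukin 2 (IL-2), the receptor chains that receive IL-2 and its related cytokines, and kinases bound to several of those chains. They were chosen by symbol, as 10 of the 16142 genes in the table, of which 1694 were at 0 throughout: Il2, Il2ra, Il2rb, Il2rg, Il7r, Il4ra, Il21r, Il15ra, Jak1 and Jak3. Their levels were compared between WT CD4+ T cells and CD4+ T cells that carry a mutant (R111A) form of Regnase-1. Regnase-1 is an RNase that degrades mRNAs of immune genes, and the study names that of IL-2 among its known targets. It is itself cleaved by the protease MALT1 after T cell receptor engagement. In the R111A mutant the MALT1 cleavage site is changed, so the protein resists this cleavage. The comparison asks how gene expression after T cell activation differs between cells that carry the mutant and WT cells.

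The WT group was 2 libraries from the spleen of wild-type B6 mice. The R111A group was 2 libraries from Cd4CreERT2 LSL-R111A fl/fl mice, in which a tamoxifen-dependent Cre recombinase driven by Cd4 removes a floxed STOP cassette and switches on an R111A transgene marked by EGFP, while the endogenous gene is kept. Tamoxifen was given i.p. at 75 mg/kg for 5 days. The labels name both genotypes in the sentence on tamoxifen without saying outright that the WT mice received it, and the study used WT mice given tamoxifen as controls in other experiments. Purified CD4+ T cells were sorted by FACS, and antibodies to CD3 (5 µg/mL) and CD28 (1 µg/mL) were used to stimulate them over 12 h. The labels name no added IL-2. They do not give the gate of this sort, neither for CD25, the protein of Il2ra, nor for EGFP. The sorting method of the study gates on GFP in reporter mice and then separates cells by CD25, and does not say which of these populations were sequenced, so the share of cells with the transgene in the R111A libraries is not known here. All 4 libraries are of stimulated cells, and unstimulated cells were not analysed here. Nothing says that the 2 libraries of a group came from separate mice, so p-values measure only the spread between these samples, which may be technical.

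IL-2 is made by CD4+ T cells soon after activation and acts on the cells that secrete it and on their neighbours. Its receptor joins a private alpha chain (Il2ra), a beta chain shared with the IL-15 receptor (Il2rb) and the common gamma chain (Il2rg), which is also part of the receptors for IL-4, IL-7, IL-9, IL-15 and IL-21. JAK1 binds the cytoplasmic tail of the beta chain and JAK3 that of the common gamma chain. Both kinases phosphorylate STAT factors, above all STAT5 for IL-2, IL-7 and IL-15.

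Levels are given as FPKM, a fragment count divided by transcript length and library size, as the authors deposited them. The FPKM values summed to 801475 and 836143 in the WT libraries and to 1053551 and 1012215 in the R111A libraries. No read counts were used here, and only the relative depth of the libraries could be read from the lowest values, where the ratio between any 2 libraries lay between 1.00 and 1.18. For the 1938 genes that averaged 50 FPKM or more, log2 ratios between replicates had an SD (from the median absolute deviation) of 0.124 in WT and 0.316 in R111A. R111A replicate 1 was above R111A replicate 2 for 9 of the 10 genes. Zc3h12a, the gene of Regnase-1, was at 17.0 and 15.7 FPKM in the WT libraries and at 196 and 131 FPKM in the R111A libraries. This fits the labels but does not separate the transgene from the endogenous gene. The wild-type B6 mice carry neither the Cre nor a transgene of unmutated Regnase-1. Resistance to cleavage, the higher level of Zc3h12a and the Cre therefore cannot be told apart. The CD4+ T cell markers Cd3g (454 and 465 FPKM in WT against 289 and 313 FPKM in R111A) and Cd4 (158 and 131 FPKM in WT against 70.7 and 51.4 FPKM in R111A) were high in every library, and both fell in R111A. Of 8 such markers 4 fell and 1 rose (32.1% and 21.2% of all genes tested), none was at 0, and they summed to 2072 and 2073 FPKM in WT against 1743.5 and 1561 FPKM in R111A, with Cd3g the most abundant. Cd5 had a log2 fold change of -0.40 and lost its call under 10 of 14 alternatives, among them the removal of WT replicate 1 (-0.36), WT replicate 2 (-0.44) or R111A replicate 2 (-0.22).

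Differences were tested with limma on log2(FPKM + 1) over the 9831 genes averaging 1 FPKM or more, with Benjamini-Hochberg adjustment, and a gene is said to rise or fall where the adjusted p was under 0.05. Adding 1 FPKM shrinks the fold changes of genes at a low level. All 10 genes entered the test. Of these, 3 rose (Il7r, Il21r and Il2rg) and 3 fell (Il2, Jak3 and Il2rb). Among all genes tested 21.2% rose and 32.1% fell. With a 2-fold change also required, Il7r rose and Il2 fell, against 8.52% and 8.34% of all genes tested. The R111A libraries lay on 1 side of both WT libraries for 8 of the 10 genes, as they did for 78.3% of all genes tested. The other 2, Il4ra and Il15ra, overlapped between the groups. The smallest two-sided p that exact permutation can reach with 2 libraries per group is 0.333, so each adjusted p rests on the model fitted across genes.

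The direction of small changes depends on how libraries are scaled. The median log2 fold change of all genes tested was -0.12. TPM rescaling, by which all libraries reach an equal sum, shifted that median by -0.30, and median-of-ratios factors shifted it by 0.12. Of the genes called, 39.8% were higher as deposited, 20.8% after TPM rescaling and 51.0% with median-of-ratios factors. Relative to the median of all genes, the log2 fold changes of the 10 genes were -4.44 for Il2, -0.76 for Jak3, -0.50 for Il2rb, 0.01 for Il2ra, 0.19 for Il15ra, 0.20 for Il4ra, 0.48 for Jak1, 0.51 for Il2rg, 1.07 for Il21r and 3.12 for Il7r. The directions of Il2, Jak3, Il2rb, Il2rg, Jak1, Il21r and Il7r were the same under TPM rescaling, median-of-ratios factors and quantile normalization, while Il2ra, Il4ra and Il15ra changed sign under at least 1 of them.

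**Figure D1:**
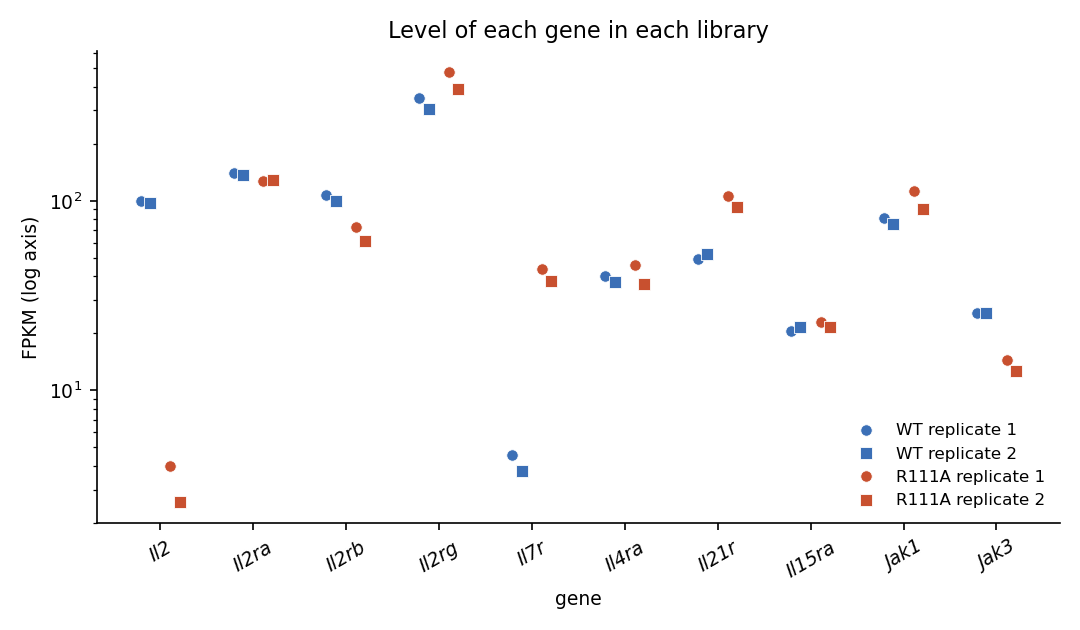
Each point is the FPKM of a gene in a library, on a log axis, with WT in blue, R111A in red, circles for replicate 1 and squares for replicate 2. Il2 is near 100 FPKM in both WT libraries and at 3.98 and 2.58 FPKM in the R111A libraries, while Il7r shows the opposite order.

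Il2 (NCBI gene 16183), the only ligand among the 10 genes, fell the furthest. It was at 100.1 and 96.9 FPKM in the WT libraries and at 3.98 and 2.58 FPKM in the R111A libraries. Both R111A libraries were far below both WT libraries, with 3.28 ± 0.99 FPKM against 98.5 ± 2.28 FPKM in WT (mean ± SD, n = 2 per group, as for all means below). The log2 fold change was -4.56 (standard error, SE, 0.17; 95% interval from -4.96 to -4.16, adjusted p = 2.7e-06 by limma), the lowest of the 9831 genes tested. In order of level among those genes, Il2 stood at rank 1058 and 1112 in WT and at rank 7919 and 8700 in R111A. The 3 genes whose values over the 4 libraries lay nearest to those of Il2, by Euclidean distance in centred log2(FPKM + 1), were Ifitm2 (distance 1.12), Pim2 (1.28) and Pros1 (1.33), each with a smaller fall than Il2. Fewer Il2-producing cells and less Il2 RNA per cell cannot be told apart in these bulk samples.

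The bases before the start of Il2 are shown because this gene fell furthest, next to those of Il7r, which rose most of the 10 genes. The sequences come from RefSeq (GRCm38.p6, the assembly of mm10). In the promoter set used, 9 of the 10 genes were matched by symbol and Il2rb was not. Il2 lies on chromosome 3 from 37120713 to 37125954 and the window at chr3:37125955-37126204, and Il7r lies on chromosome 15 from 9506159 to 9529941 and the window at chr15:9529877-9530126, all on the minus strand. Each window holds the 250 bases upstream of the RefSeq start, which for Il7r lies within the gene span given, and capitals mark matches to the searched motifs.
Il2: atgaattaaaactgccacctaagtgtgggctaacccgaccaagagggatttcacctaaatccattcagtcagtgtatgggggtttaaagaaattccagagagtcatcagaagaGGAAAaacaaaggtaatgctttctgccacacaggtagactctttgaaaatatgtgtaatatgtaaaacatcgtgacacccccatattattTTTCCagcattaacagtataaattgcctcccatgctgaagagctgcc
Il7r: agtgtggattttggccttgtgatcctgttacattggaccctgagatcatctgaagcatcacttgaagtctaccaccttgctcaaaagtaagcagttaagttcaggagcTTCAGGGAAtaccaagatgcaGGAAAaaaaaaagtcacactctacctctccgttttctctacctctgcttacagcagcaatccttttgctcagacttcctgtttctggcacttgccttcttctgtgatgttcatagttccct
The motifs were searched on both strands as the NFAT core GGAAA, the AP-1 site TGANTCA, the STAT5 site TTCNNNGAA and the FOXO site TGTTTAC. The Il2 window held 2 matches to the NFAT core, from -137 to -133 and from -47 to -43 relative to the start, and none to the other motifs. The Il7r window held 1 match to the NFAT core, from -121 to -117, and 1 to the STAT5 site, from -142 to -134. Among the other genes matched, Il15ra held 4 NFAT cores in 1 window and 1 AP-1 site in another. Jak3 held 2 NFAT cores, Il2ra, Il2rg and Il4ra held 1 each, and Il21r held 1 FOXO site. Jak1 held no match. Of 32851 promoters of this length, 55.6% held the NFAT core, 6.75% the AP-1 site, 7.02% the STAT5 site and 3.17% the FOXO site. No matches overlapped in these windows. A match describes the letters only.

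Regnase-1 is known to bind stem-loops whose loop is a pyrimidine-purine-pyrimidine triplet. Of these triplets only UAU and UGU were taken here. The 3'UTRs of the 10 genes (longest coding transcript of GENCODE vM21, GRCm38) were searched for a UAU or UGU loop on a stem of at least 5 consecutive pairs, with G-U pairs allowed. The search found 4 such hairpins in 3 genes, Il2, Il2ra and Il15ra, and they are shown 5' to 3' with the loop in capitals.
Il2, chr3:37121021-37121035, minus strand: uggaugUAUuguuua
Il2ra, chr2:11690579-11690591, plus strand: ucuggUAUucaga
Il2ra, chr2:11691553-11691565, plus strand: ucuuuUGUgggga
Il15ra, chr2:11733897-11733909, plus strand: cauauUGUauaug
The Il2 hairpin had 6 pairs, most of them G-U and none G-C, and began at base 69 of a 3'UTR of 581 bases. The search rule of the study asks for a G-C pair, which this hairpin lacks. That rule also allows shorter stems, longer loops and any pyrimidine-purine-pyrimidine triplet. Each Il2ra hairpin also held G-U pairing. Of 13254 genes with a 3'UTR at least as long as that of Il2, 21.8% held a UAU or UGU hairpin of the searched form in as many bases. The share was 78.5% for the 3411 bases of Il2ra and 36.3% for the 1068 bases of Il15ra. The other 7 genes held none of this form, and stem-loops of other forms were not searched for. For as many bases the share was 62.0% for Il2rb, 17.8% for Il2rg, 59.2% for Il7r, 65.5% for Il4ra, 21.7% for Il21r, 38.1% for Jak1 and 15.9% for Jak3. Of the 3 genes with a hairpin, Il2 fell, and Il2ra and Il15ra did not pass the test. Any part of these hairpins in the differences was not tested.

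Il2ra (gene 16184, chr2:11642792-11693194) encodes the alpha chain (CD25), which gives the IL-2 receptor its high affinity and is induced by activation. It was at 140.2 and 136 FPKM in WT against 127 and 129 FPKM in R111A, the most abundant of the 6 chains other than Il2rg in every library. The R111A values were both below the WT values by a small margin. The log2 fold change was -0.11 (SE 0.12, 95% interval from -0.39 to 0.17, adjusted p = 0.47 by limma), which did not pass the test. After TPM rescaling it was -0.44 (limma adjusted p = 0.011), with quantile normalization 0.13, and over all alternatives the adjusted p ranged from 0.011 to 0.88. Relative to the median of all genes it was -0.02 after TPM rescaling.

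Il2rb (gene 16185, chr15:78479256-78511621), the beta chain used for both IL-2 and IL-15, was at 107 and 99.3 FPKM in WT against 73.1 and 61.2 FPKM in R111A. Both R111A libraries were below both WT libraries, with means of 67.1 ± 8.39 FPKM in R111A and 103 ± 5.46 FPKM in WT. Its log2 fold change was -0.62 (SE 0.14, adjusted p = 0.0058 by limma). The call was lost without WT replicate 1 (log2 fold change -0.56, limma adjusted p = 0.089) and with quantile normalization (-0.38, adjusted p = 0.052), and the adjusted p lay between 0.0001 and 0.089 under the alternatives. Il15ra (gene 16169, chr2:11705172-11733985), the alpha chain that presents IL-15, ranged from 20.5 to 22.9 FPKM over the 4 libraries and its groups overlapped (log2 fold change 0.08, limma adjusted p = 0.65).

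Il7r (gene 16197) encodes the alpha chain of the IL-7 receptor, which is high on resting T cells and is lowered by T cell receptor signals and by IL-2. It was at 4.58 and 3.77 FPKM in WT against 43.6 and 37.5 FPKM in R111A. The 2 groups were well apart, with means of 4.17 ± 0.573 FPKM in WT and 40.6 ± 4.30 FPKM in R111A, a ratio of 9.72. The log2 fold change was 3.01 (SE 0.15, 95% interval from 2.66 to 3.36, adjusted p = 4.8e-06 by limma), and 45 genes had a larger one. In order of level, Il7r moved from rank 7698 and 8010 in WT to rank 2053 and 2349 in R111A. The genes nearest to Il7r over the 4 libraries were Gtse1 (distance 0.0927, log2 fold change 2.93), Hba-a1 (distance 0.127, log2 fold change 3.07) and Sgk1 (distance 0.151, log2 fold change 2.88). Hba-a1 is a globin gene of red cells.

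Il21r (gene 60504, chr7:125603252-125634397), the private chain of the IL-21 receptor, also rose. It was at 49.3 and 52.2 FPKM in WT against 106.5 and 92.3 FPKM in R111A, with a log2 fold change of 0.95 (SE 0.13, adjusted p = 0.00053 by limma). Both R111A libraries exceeded both WT libraries, and the change was just under 2-fold. It was over 2-fold with median-of-ratios factors (1.09), with quantile normalization (1.16) and without R111A replicate 2 (1.06), and lower after TPM rescaling (0.62) and without R111A replicate 1 (0.85). Its neighbour on chromosome 7, Il4ra, ends 23777 bases before Il21r begins, with no annotated gene between them. Il4ra (gene 16190, chr7:125552271-125579474), which binds IL-4 and IL-13, was at 40.0 and 37.2 FPKM in WT against 46.0 and 36.4 FPKM in R111A, so its groups overlapped (log2 fold change 0.08, 95% interval from -0.26 to 0.43, limma adjusted p = 0.67). Il2ra and Il15ra are on chromosome 2, with 11977 bases and 2 annotated genes (Gm39760 and Gm39759) between them, and neither passed the test.

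Il2rg (gene 16186, chrX:101264385-101268255), the common gamma chain, had the highest level of the 10 genes in each library. It was at 348 and 306 FPKM in WT against 476 and 388 FPKM in R111A. Both R111A libraries lay above both WT libraries, at 432 ± 62.3 FPKM against 327 ± 29.4 FPKM, with a log2 fold change of 0.40 (SE 0.15, adjusted p = 0.046 by limma). The call was lost by Il2rg under 7 of the 14 alternatives, among them TPM rescaling (log2 fold change 0.06, limma adjusted p = 0.71) and the removal of WT replicate 1 (0.49, adjusted p = 0.097), WT replicate 2 (0.31, adjusted p = 0.33) or R111A replicate 1 (0.25, adjusted p = 0.098). The limma adjusted p ranged from 0.0068 to 0.71 over all of them.

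**Figure D2:**
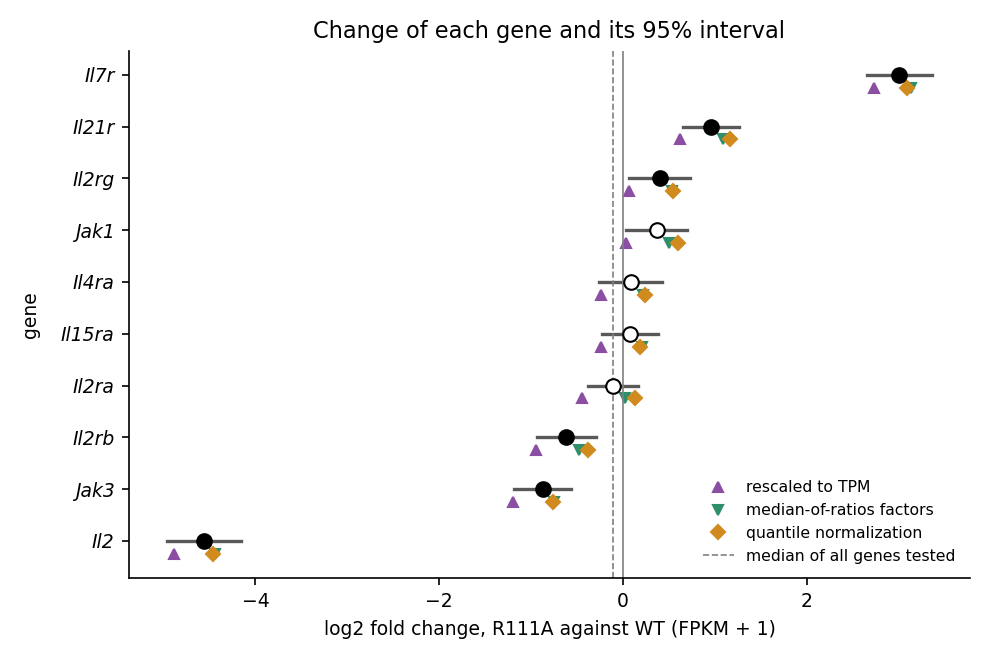
Points give the log2 fold change of each gene with its 95% interval as a line, filled where the adjusted p was under 0.05. Small symbols give the value under 3 other scalings and the dashed line the median of all genes tested, -0.12. Il7r at 3.01 and Il2 at -4.56 stand apart from 0 under every scaling, while Il2ra, Il4ra and Il15ra fall on both sides of 0.

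Since the gamma chain is part of the receptors of all these chains, the ratio of each other chain to Il2rg was taken within a library, where the scaling between libraries cancels. Il2rb was at 30.8% and 32.5% of the Il2rg level in WT and at 15.3% and 15.8% in R111A. Il7r was at 1.32% and 1.23% in WT and at 9.16% and 9.67% in R111A. Il21r was at 14.2% and 17.0% in WT and at 22.4% and 23.8% in R111A, and Il2ra at 40.3% and 44.5% in WT and at 26.7% and 33.1% in R111A. For these 4 chains the groups did not overlap. The difference of the mean log2 ratio (R111A minus WT) was 2.88 for Il7r, 0.57 for Il21r, -0.51 for Il2ra and -1.02 for Il2rb, with a pooled SD between replicates of 0.06, 0.14, 0.17 and 0.04. It was -0.31 for Il4ra (SD 0.04) and -0.32 for Il15ra (SD 0.17), and the groups of these 2 ratios did not overlap either, as was the case for the ratio to Il2rg of 78.1% of the other genes tested. The difference for Il15ra was -0.19 without WT replicate 2. These ratios were not tested, and they carry any change of Il2rg itself.

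Among the 6 chains other than Il2rg the order of levels differed between the groups. In both WT libraries it was Il2ra, Il2rb, Il21r, Il4ra, Il15ra and Il7r. In both R111A libraries Il21r stood above Il2rb, and Il7r stood above Il15ra. Il4ra and Il7r were next to each other in R111A, at 46.0 and 43.6 FPKM in replicate 1 and at 36.4 and 37.5 FPKM in replicate 2, and their order differed between the replicates. Of the summed FPKM of the 6 chains, Il2rb made up 29.6% and 28.4% in WT and 17.4% and 16.2% in R111A, and Il7r 1.27% and 1.08% in WT and 10.4% and 9.94% in R111A. The sum itself was 362 and 350.2 FPKM in WT and 419 and 378 FPKM in R111A.

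**Figure D3:**
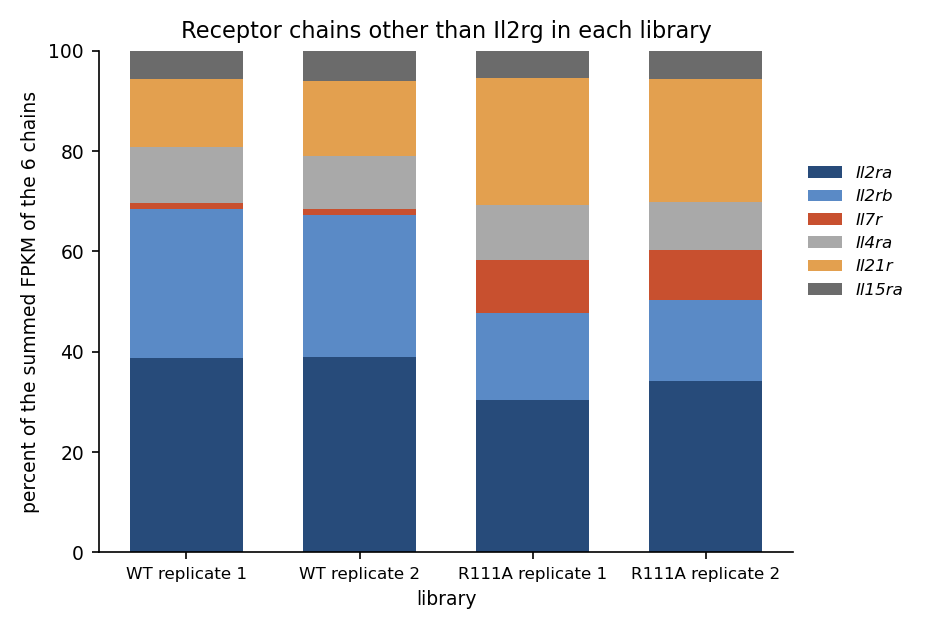
Each bar splits the summed FPKM of the 6 receptor chains other than Il2rg in a library into percentages. The share of Il7r is 1.27% and 1.08% in the WT libraries and 10.4% and 9.94% in the R111A libraries, and the share of Il2rb is smaller in R111A.

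Jak3 (gene 16453, chr8:71676383-71690577), the kinase bound to the common gamma chain, fell. It was at 25.5 and 25.7 FPKM in WT against 14.4 and 12.7 FPKM in R111A, with no overlap. Its log2 fold change was -0.88 (SE 0.14, adjusted p = 0.00094 by limma), with a ratio of WT to R111A means of 1.89. Jak1 (gene 16451, chr4:101151974-101265282), bound to Il2rb, Il4ra, Il7r and Il21r, was at 81.4 and 75.7 FPKM in WT against 113 and 91.0 FPKM in R111A. The groups of Jak1 did not overlap, but the log2 fold change of 0.36 (SE 0.14) did not pass the test (limma adjusted p = 0.062). It passed without R111A replicate 2 (log2 fold change 0.52, limma adjusted p = 0.0040), with median-of-ratios factors (0.50, adjusted p = 0.022) with quantile normalization (0.60, adjusted p = 0.012) and with the replicate number as a block (0.36, adjusted p = 0.040), and the adjusted p lay between 0.0040 and 0.85 under the alternatives. No label pairs the libraries by replicate number, so the block is arbitrary and its pass carries little weight. The log2 fold change of Jak1 was 0.03 after TPM rescaling and 0.21 without R111A replicate 1. The 2 kinases of the receptors thus had log2 fold changes of opposite sign, and the difference between them was not tested.

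**Figure D4:**
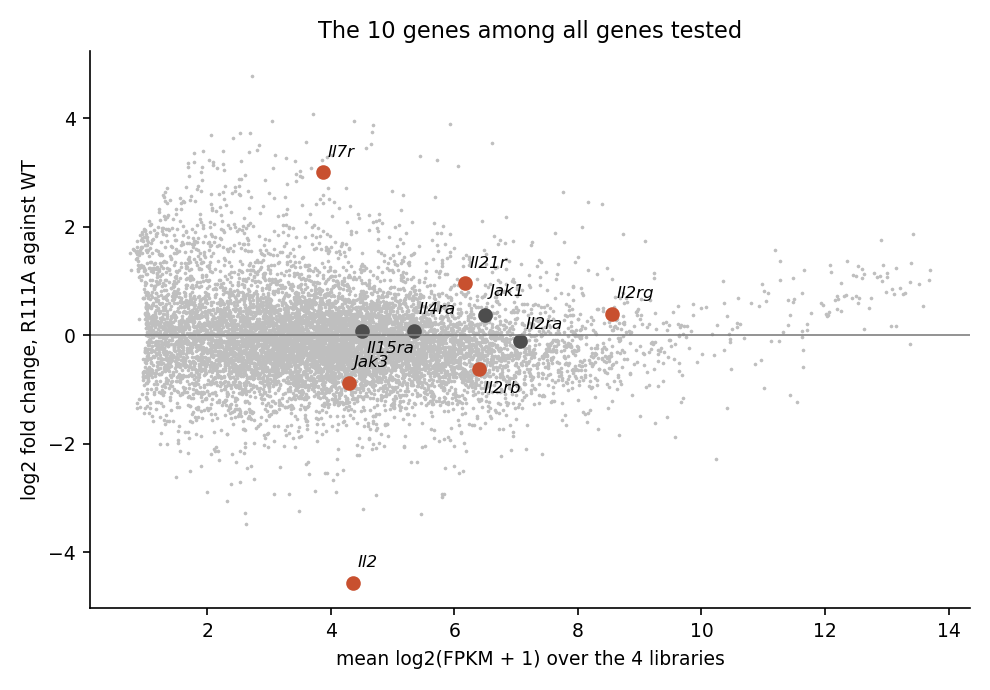
Each grey point is 1 of the 9831 genes tested, by its mean log2(FPKM + 1) and its log2 fold change, and the 10 genes are named, in red where the adjusted p was under 0.05. Il2 is the lowest point, at -4.56, and Il7r lies near the upper edge, at 3.01.

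Of the 6 other ligands of the family and its relatives, only Il4 entered the test. It fell from 10.2 and 15.5 FPKM in WT to 1.42 and 0.70 FPKM in R111A (log2 fold change -2.74, adjusted p = 3.7e-05 by limma). Il21 was at 0.82 and 0.90 FPKM in WT against 0.11 and 0.26 FPKM in R111A. Il9 and Il15 were at most 0.46 FPKM in WT and listed at 0 in both R111A libraries, and Il7 and Tslp, made mainly by stromal and epithelial cells, were listed at 0 in all 4. Among 3 further receptor chains, Il9r and Il13ra1 were under the filter. Crlf2, the TSLP receptor chain that pairs with Il7r, was at 30.5 and 28.8 FPKM in WT against 46.3 and 36.0 FPKM in R111A (log2 fold change 0.45, limma adjusted p = 0.037). The Crlf2 call was lost with no filter, with TPM rescaling (0.12) and without WT replicate 1 (0.49) or WT replicate 2 (0.41), and its value was 0.27 without R111A replicate 1.

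Tyk2 fell and Jak2 did not pass the test. Tyk2 was at 17.6 and 18.0 FPKM in WT against 12.5 and 11.8 FPKM in R111A (log2 fold change -0.52, limma adjusted p = 0.011), a call lost without WT replicate 1 (-0.53) or WT replicate 2 (-0.50). Jak2 ranged from 65.8 to 80.7 FPKM, with overlapping groups (log2 fold change 0.11, and -0.22 after TPM rescaling). Among the STAT factors, Stat5a and Stat5b fell. Stat5a was at 87.7 and 86.7 FPKM in WT against 56.6 and 46.6 FPKM in R111A (log2 fold change -0.75, limma adjusted p = 0.0022). Stat5b was at 44.9 and 45.6 FPKM in WT against 35.9 and 29.9 FPKM in R111A (log2 fold change -0.45, limma adjusted p = 0.024), a call lost with median-of-ratios factors (-0.32), with quantile normalization (-0.30) and without WT replicate 1 (-0.46) or WT replicate 2 (-0.44). Stat3 and Stat6 had log2 fold changes of -0.36 and -0.26, with a limma adjusted p of 0.13 for each, and did not pass the test. They passed without R111A replicate 1 (-0.64 and -0.37) and after TPM rescaling (-0.69 and -0.59). Stat3 also passed with the replicate number as a block (-0.36), and without R111A replicate 2 Stat3 was at -0.09 and Stat6 at -0.15. Stat6 was at -0.01 with quantile normalization.

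Of 14 tested genes known to respond to IL-2 and STAT5, 9 fell, 3 rose and 2 did not pass, against 32.1% that fell and 21.2% that rose among all genes tested. The median of these 14 log2 fold changes was -0.91, and that of all genes tested was -0.12. Pim2, a kinase that favours survival, was at 137 and 138 FPKM in WT against 14.4 and 11.9 FPKM in R111A (log2 fold change -3.29, limma adjusted p = 3.0e-06). Cish, a feedback inhibitor of STAT5 signalling, was at 75.5 and 70.2 FPKM in WT against 9.10 and 8.07 FPKM in R111A (log2 fold change -2.95, limma adjusted p = 3.6e-06). Gzmb, which encodes granzyme B, was at 7.07 and 6.67 FPKM in WT against 0.10 and 0.77 FPKM in R111A (log2 fold change -2.50, limma adjusted p = 4.4e-05). Many of these genes also respond to T cell receptor signals, so the list is not specific to the cytokine.

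Of 8 tested adaptors and phosphatases of the receptors, 3 fell and none rose, against 32.1% and 21.2% of all genes tested. Their median log2 fold change was -0.15, and it became -0.48 after TPM rescaling, -0.02 with median-of-ratios factors, 0.02 with no filter, -0.02 without R111A replicate 1 and -0.31 without R111A replicate 2. Ptpn11 (SHP-2) was at 44.0 FPKM in both WT libraries and at 13.2 and 14.3 FPKM in R111A (log2 fold change -1.61, limma adjusted p = 3.3e-05). Ptpn6 (SHP-1) had a log2 fold change of -1.39 (limma adjusted p = 4.9e-05) and Pik3cd, the catalytic p110 delta subunit of PI3K, of -0.97 (adjusted p = 0.0009).

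Genes listed here as activators of Il2 transcription went both ways. Of 18 tested, 7 rose, 5 fell and 6 did not pass, where 21.2% of all genes tested rose and 32.1% fell. The median log2 fold change of 0.37 became 0.04 after TPM rescaling and 0.19 without R111A replicate 1. Fosl2, an AP-1 factor, was at 5.16 and 4.77 FPKM in WT against 34.6 and 31.5 FPKM in R111A (log2 fold change 2.51, limma adjusted p = 7.3e-06). Ppp3ca, a catalytic subunit of calcineurin, had a log2 fold change of 1.34 (limma adjusted p = 0.00014), and Batf of -1.45 (adjusted p = 5.3e-05). Batf is on the list as a partner of JUN proteins, and its fall is not read as the loss of an activator. Of 5 tested repressors of Il2, 3 rose and 2 fell, with a median of 0.48 that became 0.17 after TPM rescaling. Tob1, an antiproliferative factor of resting T cells, was at 4.51 and 4.27 FPKM in WT against 19.5 and 13.9 FPKM in R111A (log2 fold change 1.70, limma adjusted p = 0.00011). Crem had a log2 fold change of 1.25 (limma adjusted p = 0.00048) and Ikzf1 of -0.77 (adjusted p = 0.0011).

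Of 6 regulators of Il7r transcription, 3 rose, 3 did not pass and none fell (21.2% of all genes tested rose and 32.1% fell), with a median log2 fold change of 0.30 that became -0.03 after TPM rescaling. Runx1 was at 8.69 and 7.97 FPKM in WT against 22.6 and 17.5 FPKM in R111A (log2 fold change 1.16, limma adjusted p = 0.0005). Foxo1, an activator of Il7r, was at 13.6 and 11.9 FPKM in WT against 28.4 and 19.7 FPKM in R111A (log2 fold change 0.84, limma adjusted p = 0.0051). Gfi1, a repressor of Il7r, also rose (log2 fold change 0.91, limma adjusted p = 0.00056), so the list holds genes of opposite roles. Among 16 tested cytokine receptors outside the family, 4 rose, 6 fell and 6 did not pass, with a median of -0.01 that became 0.09 with median-of-ratios factors, -0.27 after TPM rescaling and -0.44 with a filter at 5 FPKM. Il12rb1 fell from 43.9 and 41.3 FPKM in WT to 7.72 and 5.97 FPKM in R111A (log2 fold change -2.48, limma adjusted p = 1.1e-05). Ifngr1 (log2 fold change 1.70, limma adjusted p = 4.6e-05) and Il18r1 (log2 fold change 1.27, adjusted p = 0.00026) rose.

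**Figure D5:**
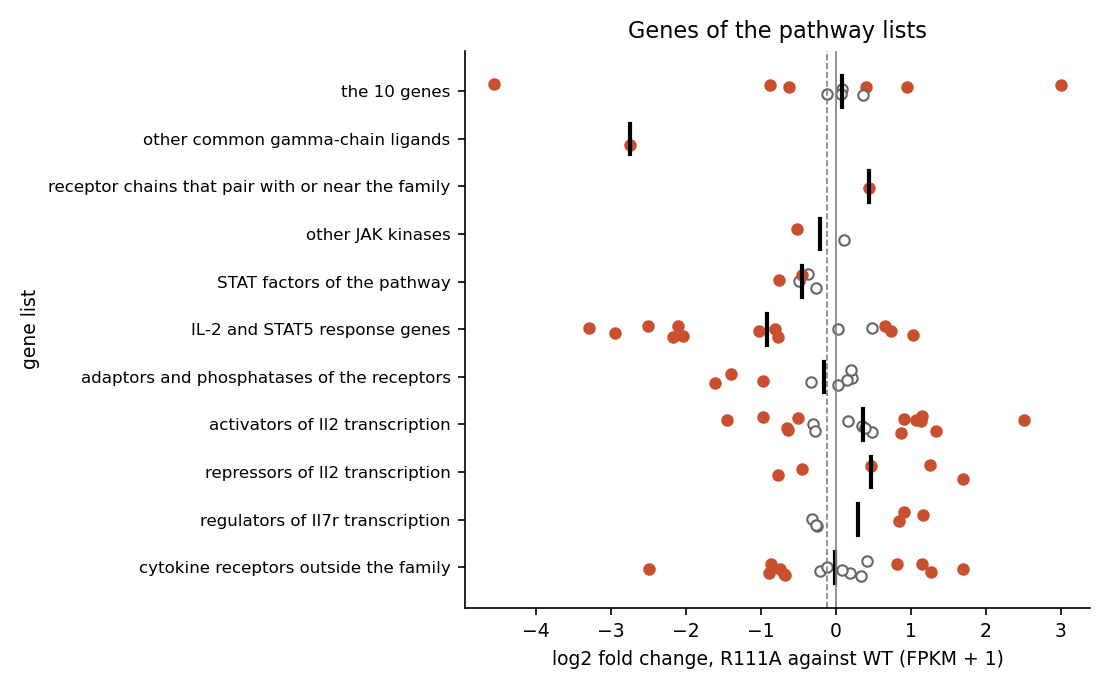
Each point is the log2 fold change of a tested gene of a list, filled where the adjusted p was under 0.05, with the median of the list as a black bar and that of all genes tested as a dashed line. The genes that respond to IL-2 and STAT5 have a median of -0.91, and the 10 genes have one of 0.08, which is -0.24 after TPM rescaling. The median of the 10 genes is 0.21 with median-of-ratios factors, -0.02 without R111A replicate 1 and 0.18 without R111A replicate 2.

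Markers of cell state and of other cells moved with the groups, and their part in the results above was not tested. Of 6 markers of resting T cells, a state in which Il7r is high, 5 rose and none fell (21.2% and 32.1% of all genes tested). S1pr1 was at 6.67 and 4.61 FPKM in WT against 43.2 and 30.8 FPKM in R111A and Klf2 at 24.7 and 20.9 FPKM in WT against 100.2 and 41.5 FPKM in R111A. The log2 fold change of Klf2 was 1.47, and 0.84 without R111A replicate 1, and its call was lost with no filter. The list summed to 618 and 570.4 FPKM in WT against 1230.4 and 921 FPKM in R111A, with Ccr7 the most abundant (369.7 and 349 FPKM in WT against 588 and 511 FPKM in R111A), and no gene of it was at 0. Ccr7 had a log2 fold change of 0.61 and lost its call after TPM rescaling (0.27). Of 8 activation markers, 3 rose and 5 fell (21.2% and 32.1% of all genes tested). Tfrc, Irf4 and Tnfrsf4 had log2 fold changes of -1.87, -1.65 and -1.56, and Cd69, the most abundant over the 4 libraries, was at 221 and 242 FPKM in WT against 454 and 651 FPKM in R111A. The activation list summed to 1449 and 1402 FPKM in WT against 1336 and 1557 FPKM in R111A.

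Of 6 Treg markers, 4 fell and 1 rose (32.1% and 21.2% of all genes tested). Tregs also express Il2ra at a high level. Foxp3, which defines them, was at 11.3 and 8.78 FPKM in WT against 2.86 and 1.86 FPKM in R111A (log2 fold change -1.72, limma adjusted p = 0.00015). Ctla4 and Tnfrsf18, the most abundant of the list, had log2 fold changes of -1.90 and -1.73. The list summed to 279.7 and 302 FPKM in WT against 109.8 and 128 FPKM in R111A. Activated T cells also express several of these genes.

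Markers of other cells were low. Cd8a was at most 0.20 FPKM and Cd8b1 fell from 7.21 and 6.56 FPKM to 3.86 and 4.39 FPKM (log2 fold change -0.62, limma adjusted p = 0.0066), a call lost without WT replicate 1 (-0.56). The 4 B cell markers summed to 2.09 and 0.89 FPKM in WT against 5.12 and 4.46 FPKM in R111A, with Cd79a the most abundant over the 4 libraries (0.32 and 0.24 FPKM in WT against 2.99 and 2.37 FPKM in R111A) and Ms4a1 at most 0.23 FPKM. Cd79b had a log2 fold change of 0.68 (1.07 without WT replicate 1). It lost its call under 6 of 12 alternatives, namely a pseudocount of 0.1 FPKM, no filter, TPM rescaling, quantile normalization, and the removal of WT replicate 2 (0.28) or R111A replicate 1 (0.73). The 7 myeloid and dendritic cell markers summed to 0.88 and 0.41 FPKM in WT against 5.04 and 4.87 FPKM in R111A, led by Lyz2. The 4 NK cell markers summed to at most 1.76 FPKM, led by Klre1. The 3 erythroid markers summed to 0.66 and 0.44 FPKM in WT against 12.3 and 11.7 FPKM in R111A, nearly all of it Hba-a1, while Hbb-bs was listed at 0 in all 4 libraries. Each of these sums was higher in both R111A libraries apart from that of the CD8 markers.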

How the data were processed

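PolyA RNA from 4 libraries of stimulated splenic CD4+ T cells, 2 WT and 2 R111A, was sequenced. The authors deposited FPKM values per gene, made by removing adaptor and low-quality reads, aligning with Bowtie2 2.4.4 to mm10 and quantifying with RSEM 1.2.28. The authors called genes with DESeq2, which was not repeated here. The table has 0 value columns that were not used.

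Groups follow the sample titles. The 10 genes were taken from the table by symbol, and they and the comparison lists were chosen with earlier results of these data known. R111A was compared with WT by limma 3.58.1 (trend) in R 4.3.3 on log2(FPKM + 1), for genes with a mean of 1 FPKM or more and with Benjamini-Hochberg adjustment. Other values were computed in python 3.11.15 (numpy 2.4.6, pandas 2.3.3; figures by matplotlib 3.10.9). The code was tested on simulated data. Read counts were not used, so sequencing depth is unknown beyond relative values.

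From each list the text names the 3 tested genes with the largest absolute log2 fold change that passed the test with no overlap between the groups, all genes of the ligand, JAK and STAT lists, and the 3 nearest genes of Il2 and Il7r. Some genes that this rule names are withheld and are not reported here. Cd69, Ccr7 and markers at low levels fall outside this rule and were named after their values were seen. The promoter motif and hairpin searches were also chosen after the data were seen. Alternatives were pseudocounts of 0.1 and 5 FPKM, no filter or a mean of 5 FPKM, TPM, median-of-ratios and quantile scaling, the replicate number as a block, eBayes without trend or robust, and leaving out each library. The block is arbitrary, as no label pairs the libraries. Its limma adjusted p reached 7.9e-151 for Il2, against 2.7e-06 in the main fit, so its p-values are not comparable with the others.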

Additional observations from a re-analysis of the deposited data

How the results depend on the processing

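Under all 14 alternatives Il2 (log2 fold change from -4.90 to -3.65), Il7r (2.31 to 3.25), Il21r (0.62 to 1.16) and Jak3 (-1.20 to -0.73) kept their direction and stayed past the threshold, with adjusted p of at most 0.0023, 0.0023, 0.0064 and 0.010. Il2rb kept direction and call in 12, Il2rg in 7, Jak1 in 10, Il2ra in 11, Il4ra in 12 and Il15ra in 13 of the 14. Of 47 other genes run under the alternatives, 35 kept direction and call in each alternative that gave them a value, 11 changed call and Jak2 reversed. Some genes at a low level had no value under the stricter filter or without a library.

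After TPM rescaling Il2ra was -0.44 and past the threshold, Il4ra -0.24, Il15ra -0.25, Il2rg 0.064 and Jak2 -0.22, and 1335 genes were higher and 5096 lower (1749 lower with a 2-fold change). This scaling moves the median of all genes by -0.30 by construction. With median-of-ratios factors Il2ra was 0.024 and Jak1 0.50. With quantile normalization Il2ra was 0.13, Il2rb -0.38 and Jak1 0.60. Il2rg stayed at 0.40 but was not past the threshold with no filter, with eBayes without a trend (0.40) or with robust eBayes (0.40). With the replicate number as a block Jak1 was at 0.36 and past the threshold, and 2236 genes were higher and 3358 lower. Where the construction of the alternative does not show it, the cause was not tested.

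List medians are given here minus that of all genes tested. With no filter they were 0.080 for the 10 genes, 0.31 for the repressors of Il2, 0.30 for the regulators of Il7r and -0.075 for the other cytokine receptors, which reversed. With 5 FPKM added they were 0.43 for the repressors of Il2 and 0.32 for the regulators of Il7r, and 386 genes were higher and 402 lower with a 2-fold change. With a filter at 5 FPKM the other cytokine receptors were at -0.29, which reversed, and 521 genes were higher with a 2-fold change. Quantile normalization gave 0.50 for the regulators of Il7r. The difference of the log2 ratio of Il7r to Il2rg was 2.61 with 1 FPKM added to both genes.

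Leaving out each library in turn assumes that the lone library of a group varies like the other group. The log2 fold change then ranged from -0.74 to -0.49 for Il2rb (lost without WT replicate 1), 0.25 to 0.54 for Il2rg, -0.081 to 0.25 for Il4ra, 0.21 to 0.52 for Jak1 and -0.033 to 0.25 for Jak2. The number of lower genes ranged from 1903 without WT replicate 2 to 3883 without R111A replicate 2. List medians ranged from 0.086 to 0.33 for the 10 genes, -0.53 to -0.040 for the STAT factors, -1.16 to -0.67 for the response genes, -0.16 to 0.088 for the adaptors, 0.30 to 0.67 for the activators of Il2, 0.34 to 0.51 for the regulators of Il7r and 0.027 to 0.16 for the other cytokine receptors. The cause of these shifts was not tested.

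The 2 libraries per group limit every estimate, and sequencing depth is unknown. The labels do not state whether the libraries of a group are from separate mice or how these cells were gated for CD25 and EGFP, and they do not say outright that WT mice received tamoxifen. No value here separates cell number from RNA per cell.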
